A study of Rattus norvegicus with 180 samples.

Results

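The comparison was of cerebellum with cerebral cortex in 3 male Sprague-Dawley rats, aged 10 weeks, which the labels number 4, 5 and 6. These rats had been perfused with saline, so blood had been flushed from both organs, and each rat gave 1 array per organ. The 6 arrays were chosen by the organ and rat number in their labels, out of 180 arrays in the whole series, and were compared pairwise within each rat over all 717 miRNAs of the array design. All rats had received ether as an anesthetic, and the labels name no other treatment and no transgene. Hippocampus and thalamus of the same rats (6 arrays) served to place a difference on the cerebellar or the cortical side. Cortex, hippocampus and thalamus were dissected by eye from the cerebrum. Each sample, cerebellum included, is bulk tissue that can mix neurons, glia, vessels and adhering tissue.

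MicroRNAs are short RNAs that base-pair with target transcripts, mainly through their seed (bases 2 to 8), and repress them. The cerebellum is dominated by small granule neurons, while the cerebral cortex is built largely of glutamatergic pyramidal neurons with several classes of interneurons. Several miRNAs, among them miR-124, miR-9 and miR-128, are enriched in neurons, and others mark glia, vessels or blood. In bulk tissue a lower signal can stand for fewer cells of a type or for less RNA per cell, and these cannot be told apart.

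The sequences of miRNAs with large differences, and of their seed relatives, are shown with the seed in capitals (RefSeq, GRCr8). The first 4 share a seed and are members of the miR-15 family. miR-195, miR-497 and miR-16 rose in cerebellum and miR-15b did not pass the test:
miR-195: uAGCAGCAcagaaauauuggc
miR-497: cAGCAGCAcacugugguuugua
miR-16: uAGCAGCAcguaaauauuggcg
miR-15b: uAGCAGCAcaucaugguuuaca

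The following pairs share a seed within each pair, and every one of these 6 miRNAs was lower in cerebellum:
miR-221: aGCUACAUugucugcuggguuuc
miR-222: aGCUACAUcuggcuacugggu
miR-132: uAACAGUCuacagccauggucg
miR-212: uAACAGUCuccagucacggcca
miR-7a: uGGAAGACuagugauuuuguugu
miR-7b: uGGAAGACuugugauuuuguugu

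Others with large differences do not share a seed with those above. They were higher (miR-206, miR-204, miR-194, miR-192 and miR-34a) or lower (miR-139-5p, miR-551b, miR-137 and miR-128) in cerebellum:
miR-206: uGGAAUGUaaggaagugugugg
miR-204: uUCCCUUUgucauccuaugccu
miR-194: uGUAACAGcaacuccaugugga
miR-192: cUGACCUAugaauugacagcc
miR-34a: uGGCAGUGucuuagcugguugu
miR-139-5p: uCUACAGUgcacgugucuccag
miR-551b: gGCGACCCauacuugguuucagu
miR-137: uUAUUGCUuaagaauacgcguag
miR-128: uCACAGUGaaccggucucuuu

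Along their length miR-195 and miR-16 were equal at 19 of 21 bases, miR-7a and miR-7b at 22 of 23, and miR-132 and miR-212 at 17 of 22. The probes of such close relatives may take up each other's RNA, so their signals are not fully independent. miR-221 and miR-222 were equal at only 11 of 21 bases, and miR-195 and miR-497 at 12 of 21.

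Each of the 6 arrays detected between 179 and 218 miRNAs, where detected means that over 50% of the spots used were well above background. A total of 198 miRNAs were detected on all 3 arrays of at least 1 organ and were tested, and the other 519 were not. Arrays of one organ correlated at r of 0.984 to 0.994 within cerebellum and 0.986 to 0.990 within cortex over these miRNAs, against 0.872 to 0.905 between the organs. In rats 5 and 6 both organs lay on one slide. In rat 4 they lay on different slides scanned on different days.

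Of the 198 miRNAs tested with limma (rat as a block, Benjamini-Hochberg adjusted p under 0.05), 47 were higher in cerebellum (23.7%) and 100 were lower (50.5%), which makes 147 in either direction (74.2%). Values are scaled signals with a floor of 10.8, and differences are log2 of cerebellum minus cortex, given ± SE with n = 3 rats. The median difference over all miRNAs tested was -0.44 (-0.45, -0.25 and -0.52 in rats 4, 5 and 6), so that a miRNA at 0 already lies above the middle of the distribution. In 44 miRNAs (22.2%) all 3 cerebellar arrays lay above all 3 cortical arrays, and in 105 (53.0%) they lay below. At a size of 2-fold or more, 17 were higher and 55 lower. The fits against hippocampus and thalamus use the same cerebellar or cortical arrays, so their values are set beside these only to show each organ's own level. In cerebellum against those organs 35 of 201 miRNAs were higher (17.4%) and 113 lower (56.2%), or 73.6% in either direction. In cortex against them 5 of 196 were higher (2.55%) and 26 lower (13.3%), or 15.8% in either direction. These cortical calls depended on the rats fitted, as leaving out rat 4, 5 or 6 left 1, 2 or 1 higher and 3, 15 or 0 lower. Those of miR-204 and miR-132 described below were lost without any 1 of the rats, and that of miR-7a without rat 5 or 6.

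The split between higher and lower depended on how arrays were brought to one scale. Among the calls, 32.0% were higher when the 75th percentile came from the 37 miRNAs that every array of the series detected, the scaling used throughout, and 71.3% (92 higher, 37 lower) with the same percentile over all miRNAs. Quantile normalization gave 67 higher and 68 lower, the authors' normalized values gave 80 and 60, and centring each array on its median 73 and 63. Over the 7 scalings run, 32 miRNAs (16.2%) were called higher and 35 (17.7%) lower under every one, and 16 were called in opposite directions under different scalings.

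**Figure D1:**
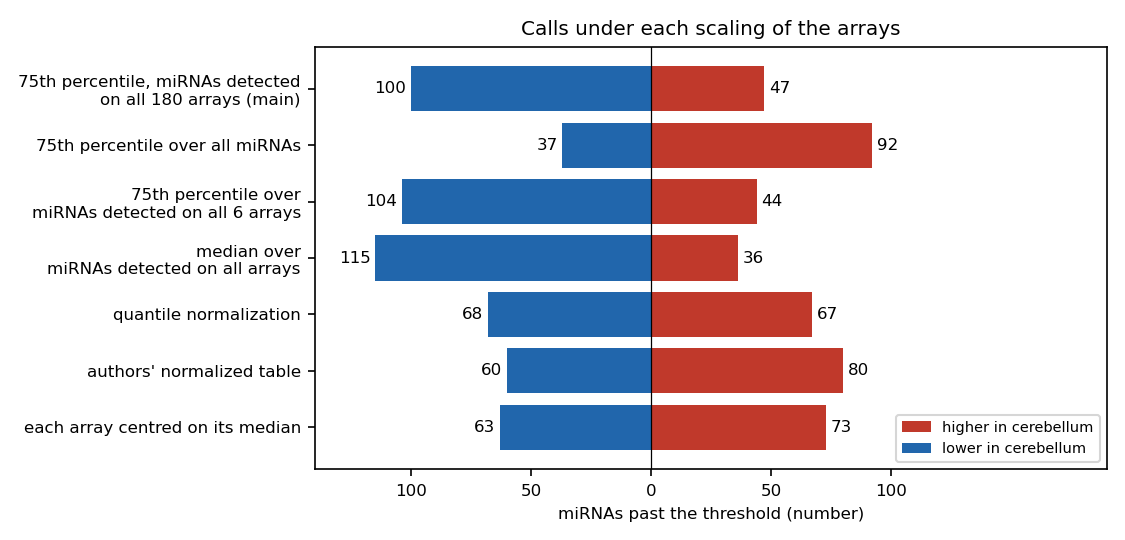
Number of miRNAs past the threshold in cerebellum against cerebral cortex under each of 7 ways of scaling the arrays; bars to the right count miRNAs higher in cerebellum, bars to the left those lower. The 47 higher and 100 lower of the scaling used became 92 and 37 with the 75th percentile over all miRNAs.

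**Figure D2:**
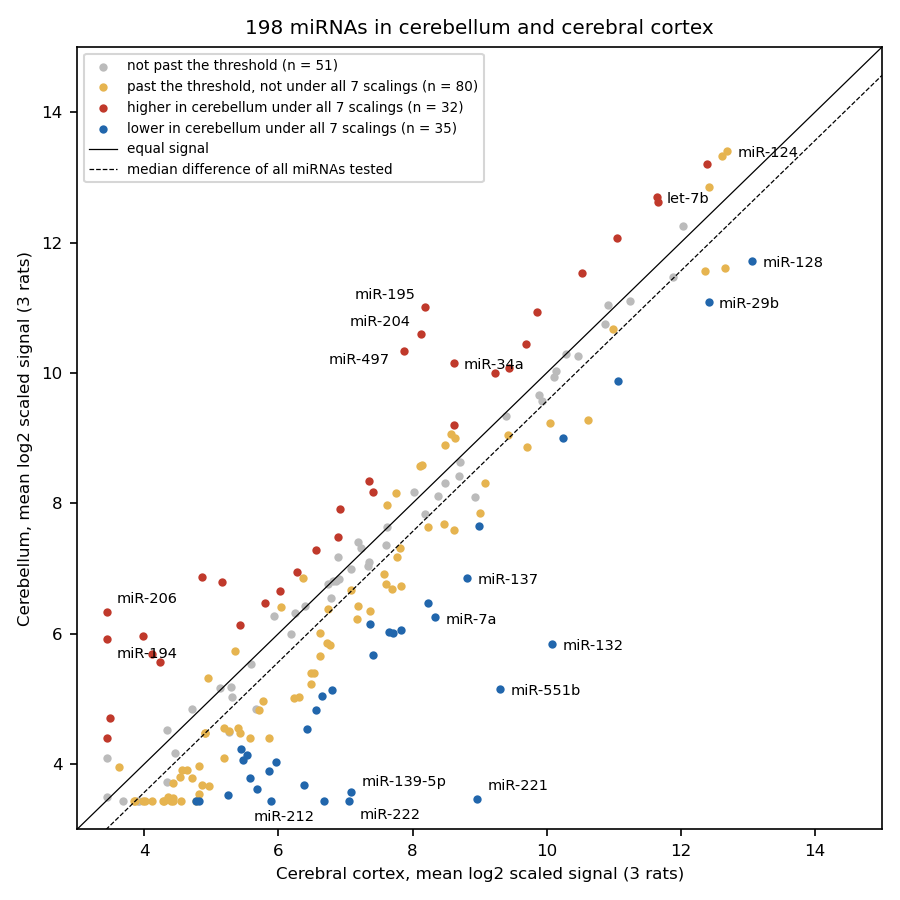
Mean log2 scaled signal in cerebral cortex (x axis) and cerebellum (y axis) for the 198 miRNAs tested, 3 rats each. The solid line marks equal signal and the dashed line the median difference of -0.44. miR-221 lies farthest below the line, and miR-206, miR-195, miR-194, miR-204 and miR-497 farthest above it.

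The 2 miRNAs given as markers of this comparison, miR-124 and miR-195, were both higher in cerebellum. miR-124, the most neuron-restricted of brain miRNAs, had signals of 9756, 9981 and 13265 in cerebellum of rats 4, 5 and 6 and of 6961, 6252 and 6709 in cortex. All cerebellar values lay above all cortical ones, with a difference of 0.72 ± 0.13 (limma adjusted p = 0.00499). This call was lost with quantile normalization, where the difference was 0.10 (adjusted p = 0.436). Over the 55 organs of perfused rats, cerebellum ranked 1st and cortex 3rd in mean miR-124 signal, with the eyeball between them.

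miR-195, a member of the miR-15 family whose targets include cell cycle genes, had signals of 2015, 1998 and 2179 in cerebellum and 299, 284 and 293 in cortex. The organs were separated 7.06-fold with no overlap (2.82 ± 0.10, limma adjusted p = 3.19e-05). Cerebellum held the highest mean of the 55 organs, above skin at 1344, while cortex ranked 39th. Against hippocampus and thalamus, cerebellum was higher by 3.33 ± 0.17 (adjusted p = 7.23e-06), whereas cortex stood at 0.51 ± 0.17 (adjusted p = 0.084).

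miR-497 lies beside miR-195 on chromosome 10, and both mature sequences fall within chr10:55450172-55450569 (GRCr8). Its signals were 1296, 1223 and 1359 in cerebellum and 243, 226 and 235 in cortex, a difference of 2.46 ± 0.10 (adjusted p = 3.62e-05). It too had its highest organ mean in cerebellum, and cortex ranked 42nd of 55. miR-16, which shares the seed but lies in another cluster, was higher by 1.08 ± 0.10 (adjusted p = 0.000565; 0.91 to 1.96 over the alternatives run), with signals of 1788 to 2076 in cerebellum and 890 to 964 in cortex. miR-15b, which lies with miR-16 within chr2:155555197-155555405, stood at 91.1 to 133 in cerebellum and 115 to 124 in cortex, and the organs overlapped (-0.06 ± 0.13, adjusted p = 0.682). Under 4 other scalings it was called higher. miR-322, from a further locus of the list, was lower by -1.25 ± 0.25 (adjusted p = 0.00655), though not under all 7 scalings.

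miR-206, miR-194 and miR-192, known from outside the nervous system, stood out at low signal. miR-206, best known from slow skeletal muscle, had signals of 86.7, 80.0 and 75.9 in cerebellum and lay at the floor on every cortical array, 1 of which detected it (2.90 ± 0.10, adjusted p = 3.19e-05). As the cortical values are all the floor, the size of this difference and its SE are set by the floor, and over the alternatives run it ranged from 0.87 to 3.40. The soleus muscle, where it was highest, reached 8599. miR-133b, its neighbour within chr9:30590747-30594650, was at 95.7, 62.6 and 58.3 in cerebellum and 37.3, 40.7 and 52.0 in cortex, which is higher by 0.72 ± 0.24 (adjusted p = 0.0395). The muscle miRNAs miR-1 and miR-133a lay at the floor on all 6 arrays. The summed signal of miR-1, miR-133a and miR-133b, taken as all marker sums here before the floor was set, ranged from 63.5 to 105 in cerebellum and from 43.7 to 60.4 in cortex, and its part in the result was not tested.

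miR-194 and miR-192, abundant in intestinal epithelium and liver, were also higher. miR-194 had signals of 56.7, 59.0 and 65.8 in cerebellum and was not well above background on any cortical array. This makes it at least 5.57-fold higher at this floor (limma adjusted p = 4.02e-05). As all cortical values of miR-194 are the floor, this p takes no spread from cortex and its size depends on the floor. Over the alternatives run the log2 difference of miR-194 ranged from 0.48 to 3.08. miR-192 stood at 54.8, 74.1 and 59.7 against 14.7, 18.9 and 14.0, a difference of 1.99 ± 0.10 (adjusted p = 7.06e-05) that ranged from 0.47 to 2.64. Their highest organ means, both in duodenum, were 25104 and 25731, so the cerebellar levels were small beside them. Of the nervous system samples and pituitary gland described here, 12 in all, cerebellum had the highest mean of both.

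miR-204, located in an intron of Trpm3 and abundant in retinal pigment epithelium and choroid plexus, had signals of 1416, 1889 and 1389 in cerebellum and 246, 241 and 363 in cortex. The difference was 2.48 ± 0.21 (adjusted p = 0.000455). Cortex was below hippocampus and thalamus by -1.03 ± 0.23 (limma adjusted p = 0.0213), and cerebellum above them by 1.45 ± 0.23 (adjusted p = 0.00108). Hippocampus, at 569, 278 and 357, overlapped cortex, while thalamus stood at 837, 905 and 781. Of 6 other markers listed for choroid plexus and ciliated epithelium, none was detected on all 3 cerebellar arrays. miR-449a, miR-200a and miR-200b were at the floor throughout. The summed signal of these 6, before the floor was set, ranged from 25.0 to 129 in cerebellum and from 27.8 to 87.8 in cortex. Both miR-34b and miR-34c were highest in rat 5 in either organ, at 51.9 and 65.7 in cerebellum and 33.9 and 46.2 in cortex. The part of these cell types in the miR-204 difference was not tested.

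miR-34a, a direct target of p53, was higher by 1.54 ± 0.19 (adjusted p = 0.00105), and by 1.38 to 2.43 over the alternatives run. Its cerebellar signals were 1293, 1108 and 1036 and its cortical signals 351, 538 and 317. Medulla oblongata had a mean of 3473 and the cervical spinal cord one of 3292, both above cerebellum.

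The remaining 7 of the 15 largest increases with no overlap were miR-3588, miR-500, miR-320, miR-28, miR-378*, let-7b and let-7d. The dimmer of these had small cerebellar signals, with means of 117 for miR-3588, 112 for miR-500, 51.5 for miR-320, 47.3 for miR-28 and 26.1 for miR-378*. Their differences were 2.01, 1.64, 1.58, 1.33 and 1.22, with SE from 0.10 to 0.33 and adjusted p from 0.000135 to 0.00334. miR-3588 varied most between rats in cortex, at 15.0, 28.5 and 57.0, and both it and miR-320 were detected on only 1 of 3 cortical arrays. Over the alternatives run miR-3588 ranged from 0.83 to 2.70 and miR-500 from 0.70 to 2.52. With a floor 4 times as high the calls of miR-28 (0.13, adjusted p = 0.254) and miR-320 (0.25, adjusted p = 0.052) were lost, and with another background correction that of miR-28 (0.19, adjusted p = 0.175). miR-378* lay at or near the floor on every cortical array, 1 of which detected it, and its difference was -0.04 with another background correction. The main strand, miR-378, was higher by 0.66 ± 0.19 (adjusted p = 0.0251), although its values in the organs overlapped, at 70.5, 94.6 and 104 in cerebellum and 48.1, 42.0 and 86.5 in cortex.

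**Figure D3:**
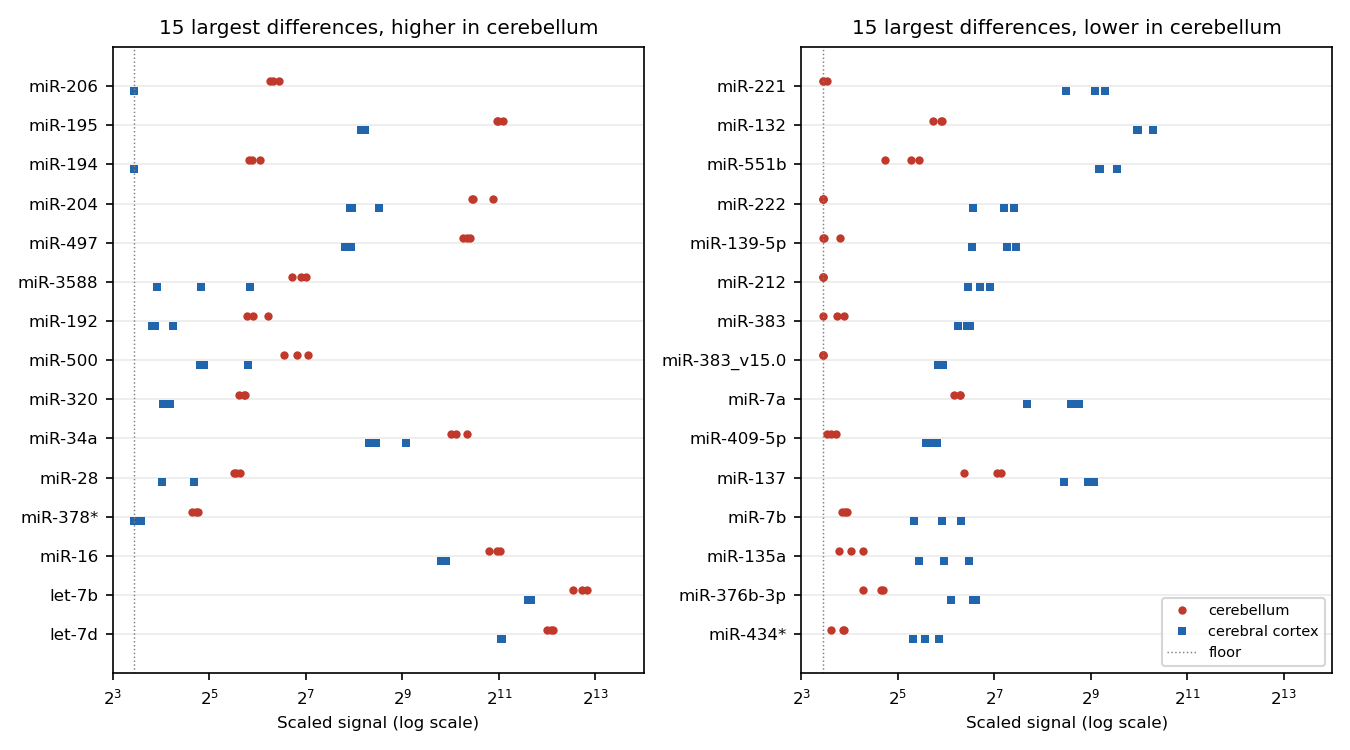
Scaled signal on a log axis in each of 3 rats for the 15 miRNAs with the largest increase (left) and decrease (right) in cerebellum; circles are cerebellum, squares cerebral cortex, and the dotted line is the floor of 10.8. The miRNAs shown were chosen for no overlap between the organs and the same sign in all rats. miR-222, miR-212 and the older probe set of miR-383 (v15.0) lie at the floor in every cerebellar sample.

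The largest decrease in cerebellum was that of miR-221, a regulator of Cdkn1b and Kit that is transcribed with miR-222 from the X chromosome. Signals of miR-221 were 630, 357 and 547 in cortex and 10.8, 11.5 and 10.8 in cerebellum, where 2 of 3 arrays detected it. The difference was -5.49 ± 0.20 (adjusted p = 3.19e-05), and as 2 of 3 cerebellar values are the floor, its size is set by the floor and ranged from -6.06 to -3.52 over the alternatives run. Cerebellum ranked last of the 55 organs, and cortex second after hippocampus. miR-222 was at 169, 94.5 and 147 in cortex and was not well above background on any cerebellar array. It was at least 12.3-fold lower at this floor (limma adjusted p = 7.06e-05), with a log2 difference of -5.62 to -1.62 over the alternatives run. Every cerebellar value of miR-222 is the floor, so this p takes no spread from cerebellum and its size depends on the floor. The mature sequences of the pair lie within chrX:6022642-6023268.

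Cerebellum was lower than hippocampus and thalamus as well, by -4.98 ± 0.26 for miR-221 (limma adjusted p = 7.23e-06) and by -3.25 ± 0.28 for miR-222 (adjusted p = 6.16e-05). With cerebellum at or near the floor for both, the sizes of these differences are set by the floor. Cortex against the same organs gave 0.51 ± 0.32 (adjusted p = 0.312) and 0.37 ± 0.32 (adjusted p = 0.477).

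miR-132 and miR-212 come from one transcript that is induced by CREB and neuronal activity, and lie within chr10:60521771-60522112. miR-132 had signals of 998, 1009 and 1251 in cortex and 60.4, 59.3 and 53.0 in cerebellum (-4.23 ± 0.14, adjusted p = 3.19e-05). The fold difference was 18.8. Cortex was the highest of all 55 organs for miR-132 and exceeded hippocampus and thalamus by 1.18 ± 0.26 (adjusted p = 0.0213), while cerebellum was below them by -3.05 ± 0.29 (adjusted p = 7.16e-05). miR-212 was at 104, 87.4 and 120 in cortex and not well above background on any cerebellar array. It was at least 9.49-fold lower at this floor (limma adjusted p = 3.62e-05), with a log2 difference of -4.89 to -1.25 over the alternatives run. Since cerebellar values of miR-212 are all the floor, this p takes no spread from cerebellum and its size depends on the floor.

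miR-551b had signals of 749, 579 and 583 in cortex and 43.5, 38.8 and 26.4 in cerebellum, a difference of -4.16 ± 0.14 (adjusted p = 3.19e-05). Pituitary gland had the highest mean, 1515. miR-139-5p, located in an intron of Pde2a, was at 154, 92.5 and 174 in cortex and 11.0, 10.8 and 13.9 in cerebellum (-3.52 ± 0.17, adjusted p = 6.34e-05). These cerebellar values lie at or near the floor, and the difference ranged from -3.85 to -1.64 over the alternatives run. Hippocampus varied widely, at 62.6, 67.0 and 390, and thalamus was at 75.8, 61.5 and 100.4. miR-383, at 10.8 to 14.7 in cerebellum, was lower by -2.70 ± 0.13 (adjusted p = 6.34e-05), and by -2.998 to -0.951 over the alternatives run. Its older probe set (miR-383_v15.0) was at the floor on every cerebellar array, so that its difference of -2.46 ± 0.10 (adjusted p = 3.62e-05) is set by the floor and ranged from -2.97 to -0.46 over the alternatives run.

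The seed pair miR-7a and miR-7b, abundant in pituitary and hypothalamus, was lower in cerebellum too. miR-7a had signals of 429, 205 and 384 in cortex and 77.8, 78.2 and 72.2 in cerebellum (-2.09 ± 0.24, adjusted p = 0.000917), with a range of -2.44 to -1.21 over the alternatives run. miR-7b was at 79.1, 40.4 and 60.6 against 14.3, 15.4 and 15.0 (-1.96 ± 0.22, adjusted p = 0.000813), a call lost with a floor 4 times as high (-0.45, adjusted p = 0.0619). Thalamus had far more of both, with miR-7a signals of 3306, 2586 and 2396, so that cortex was below hippocampus and thalamus by -1.81 ± 0.29 (adjusted p = 0.00589) and cerebellum by -3.90 ± 0.22 (adjusted p = 7.91e-06). The pituitary gland mean of miR-7a was 21840. miR-375, the other pituitary marker, lay at the floor on all 6 arrays.

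miR-137 is known from neuronal differentiation and schizophrenia genetics, and miR-135a was also among the 15 largest decreases. miR-137 was at 539, 346 and 488 in cortex and 141, 132 and 82.8 in cerebellum (-1.96 ± 0.23, adjusted p = 0.000988), with a range of -2.24 to -1.08. miR-135a was at 89.1, 43.2 and 62.2 against 13.8, 16.2 and 19.3 (-1.93 ± 0.26, adjusted p = 0.00155), and its call was lost with the higher floor (-0.52, adjusted p = 0.0617).

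**Figure D4:**
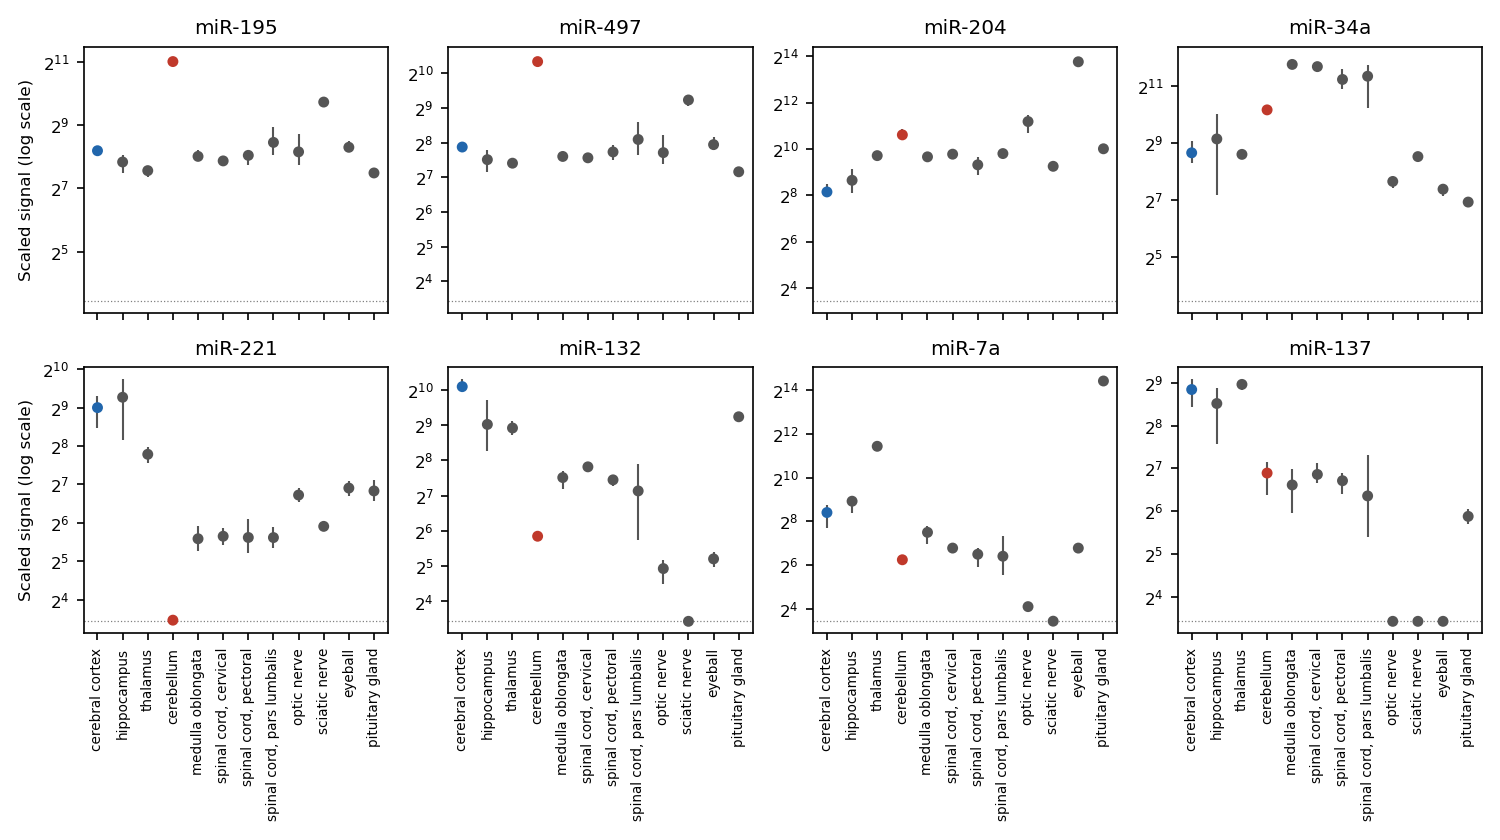
Mean scaled signal (points, log axis) of 8 miRNAs in 12 nervous system organs, eyeball and pituitary gland included, with the range over 3 rats as a line; cerebellum is red, cerebral cortex blue and the dotted line is the floor. Cerebellum holds the highest value of miR-195 and miR-497 and the lowest of miR-221.

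The 15 tested members of the neuronal list did not move as one. Of these, 2 were higher (miR-124 and miR-129), 7 were lower and 6 did not pass, beside 23.7% higher and 50.5% lower over all miRNAs tested, and the median was -0.62 beside -0.44. With the scaling used, the share lower is thus near that of all miRNAs. Over the 7 scalings between 1 and 7 were higher and between 6 and 9 were lower. Under every scaling 6 of the 15 were lower, beside 17.7% of all miRNAs tested. These 6 were miR-132, miR-212, miR-137, miR-138, miR-153 and miR-128. miR-128 was one of the brightest miRNAs, at 8371, 8473 and 8912 in cortex and 3652, 2945 and 3534 in cerebellum, a difference of -1.35 ± 0.11 (adjusted p = 0.000437). Cortex exceeded hippocampus and thalamus in miR-128 by 1.68 ± 0.13 (adjusted p = 0.000321), and cerebellum stood at 0.33 ± 0.14 against them (adjusted p = 0.0615).

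miR-138 was lower by -1.77 ± 0.12 (adjusted p = 0.00018) and miR-153 by -1.69 ± 0.10 (adjusted p = 0.000126). miR-9 and its other strand miR-9*, regulators of neural progenitors, did not pass, at -0.41 ± 0.15 (adjusted p = 0.0559) and 0.22 ± 0.12 (adjusted p = 0.133). With the 75th percentile over all miRNAs miR-9 was called higher (0.47, adjusted p = 0.0383), and miR-9* was called higher under 4 of the 7 scalings. The sum of the 3 neuron markers miR-124, miR-9 and miR-128 ranged from 15576 to 20000 in cerebellum and from 17784 to 20054 in cortex, so these ranges overlapped while miR-124 and miR-128 differed in opposite directions.

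The Dlk1-Dio3 region holds a large imprinted set of miRNAs expressed from the maternal chromosome and prominent in brain. Members were counted by probe set, so miR-409-5p and miR-487b each entered with an older one (v15.0) too. Of 102 members on the array 44 were tested. None was higher, 41 were lower and 3 did not pass, with a median of -0.95. This is beside 50.5% lower over all miRNAs tested. The count was strongly tied to scaling, with 12 to 43 lower and 0 to 5 higher over the 7 scalings. Under every scaling 11 of the 44 were lower, beside 17.7% of all miRNAs tested.

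Those 11 included miR-409-5p, miR-376b-3p, miR-434*, miR-376a, miR-369-5p, miR-410 and miR-434. miR-409-5p was at 56.4, 48.1 and 50.0 in cortex and 13.1, 12.2 and 11.6 in cerebellum (-2.06 ± 0.10, adjusted p = 6.34e-05). miR-376b-3p was at 98.9, 68.8 and 93.7 against 25.7, 19.3 and 25.0 (-1.90 ± 0.10, adjusted p = 7.06e-05), and ranged from -2.06 to -0.99 over the alternatives run. miR-434*, with -1.79 ± 0.11 (adjusted p = 0.000155), exceeded its main strand miR-434, with -1.24 ± 0.10 (adjusted p = 0.000359), in size. With a floor 4 times as high the calls of miR-409-5p (-0.25, adjusted p = 0.0646) and miR-434* (-0.18, adjusted p = 0.213) were lost. miR-376a, miR-369-5p and miR-410 were at -1.76, -1.74 and -1.63. miR-127 was lower by -0.84 ± 0.10 (adjusted p = 0.00106), and this sign turned with the 75th percentile over all miRNAs. miR-381 was the member with the highest difference, 0.33 ± 0.13 (adjusted p = 0.0604).

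The let-7 family, which holds back LIN28 and growth genes in differentiated cells, was higher in cerebellum in 6 of 8 tested members and lower in none, beside 23.7% higher over all miRNAs tested, with a median of 0.76. Over the 7 scalings between 4 and 8 members were higher. let-7b had signals of 6749, 7304 and 5919 in cerebellum and 3113, 3263 and 3196 in cortex (1.06 ± 0.11, adjusted p = 0.000665). let-7d was at 4468, 4301 and 4071 against 2114, 2118 and 2149 (1.01 ± 0.10, adjusted p = 0.000657). Its mean in cerebellum was the highest of 55 organs. Its cortical values lie at or near the scaling target of 2118, to which the percentile of each array was set. Some arrays of hippocampus, thalamus, medulla oblongata, spinal cord, optic nerve and pituitary gland lie at this target as well. The part of the scaling in the small cortical spread and in the organ ranks of let-7d was not tested. Over the alternatives run let-7b ranged from 0.89 to 1.94 and let-7d from 0.84 to 1.89. let-7i (1.01 ± 0.10) and let-7c (0.81 ± 0.10) were also higher under every scaling, let-7a (0.72 ± 0.10) under 6 and let-7f (0.42 ± 0.11) under 5 of 7, and let-7e stood at 0.12 ± 0.11 (adjusted p = 0.364).

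Members of the let-7 family took between 34.2% and 36.1% of the summed signal of an array in cerebellum, and between 21.9% and 22.7% in cortex. This share does not depend on the factor by which an array is scaled. Of the 37 miRNAs used for scaling, 6 were let-7 members. Probes of near-identical let-7 members may take up each other's RNA.

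The counts of the smaller families stand beside 23.7% higher and 50.5% lower over all miRNAs tested. In the miR-30 family 7 of 8 tested members were higher and none was lower, with a median of 0.44 and 2 to 8 higher over the scalings. miR-30c (0.63 ± 0.13, adjusted p = 0.00696) and miR-30a (0.58 ± 0.11, adjusted p = 0.00575) were higher under all 7. In the miR-181 family 2 of 5 were higher and none lower (2 to 5 and 0 to 1 over the scalings), miR-181a by 0.75 ± 0.14 (adjusted p = 0.00465) and miR-181c by 0.67 ± 0.10 (adjusted p = 0.0025). In the miR-29 family, which targets collagens and other matrix genes, 3 of 4 were lower and none higher. Over the scalings 1 to 3 were lower and 0 to 2 higher. miR-29b was at 6157, 4767 and 5536 in cortex and 2256, 2118 and 2178 in cerebellum (-1.32 ± 0.11, adjusted p = 0.000431), and was lower under every scaling. Its cerebellar values lie at or near the scaling target of 2118. The part of the scaling in their small spread was not tested. miR-29a was lower by -0.80 ± 0.10 (adjusted p = 0.00123), and this sign turned with the 75th percentile over all miRNAs.

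The oncogenic miR-17-92 cluster and its paralogs had 7 tested members, of which 2 were higher and 4 lower. miR-25 (0.63 ± 0.11, adjusted p = 0.00392) and miR-106b (0.48 ± 0.10, adjusted p = 0.00711) were higher. miR-19b (-1.66 ± 0.21, adjusted p = 0.00123), miR-20a (-1.47 ± 0.22, adjusted p = 0.00244), miR-20b-5p (-1.28 ± 0.13, adjusted p = 0.000657) and miR-92a (-1.28 ± 0.27, adjusted p = 0.00848) were lower. Over the scalings 1 to 3 were higher and 2 to 4 lower, and miR-25 and miR-19b kept their call under every one.

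In the list of miR-99, miR-100 and miR-125, 1 of 5 was higher and 2 were lower. Over the scalings 1 to 3 were higher and 0 to 3 lower, and no member was lower under every one. miR-99b rose by 0.60 ± 0.11 (adjusted p = 0.00433), and miR-125b-5p, which was bright in both organs, was at 6633, 6345 and 6509 in cortex and 3323, 3801 and 2394 in cerebellum (-1.06 ± 0.16, adjusted p = 0.00242). In the list of miR-23, miR-24 and miR-27, 3 of 5 were lower and none higher, a share near the 50.5% lower over all miRNAs, and the median of -0.37 lay above -0.44. The direction of this count turned with the scaling, with 0 to 3 lower and 0 to 3 higher. The neighbours miR-23a (-1.34 ± 0.18, adjusted p = 0.00151) and miR-27a (-1.16 ± 0.14, adjusted p = 0.000981), within chr19:40859614-40859798, were lower under 6 of 7 scalings.

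**Figure D5:**
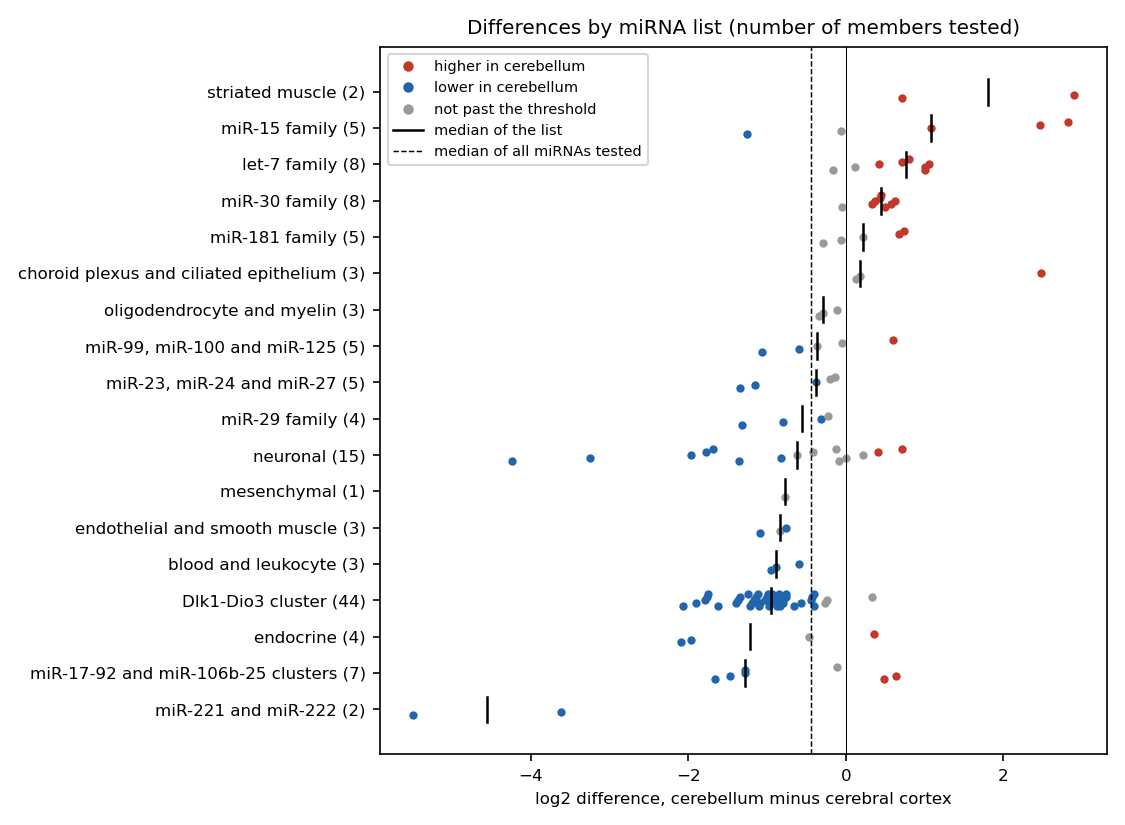
log2 difference of cerebellum minus cerebral cortex for the tested members of each miRNA list (points, coloured by call), with the list median as a bar, the number tested in brackets and the median of all 198 miRNAs as a dashed line. The list of miR-221 and miR-222 has the lowest median, the Dlk1-Dio3 cluster lies below 0 except for miR-381, and the medians of the let-7 and miR-30 families lie above 0.

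Markers of other cell types were given for both organs. The oligodendrocyte markers miR-219-2-3p, miR-219-5p and miR-338 did not pass the test, at -0.29 ± 0.18, -0.34 ± 0.22 and -0.11 ± 0.12 (adjusted p = 0.196, 0.209 and 0.423). Over the scalings 0 to 2 of them were called higher and 0 to 2 lower, with miR-338 at 0.77 (adjusted p = 0.0016) under the 75th percentile over all miRNAs. Their summed signal ranged from 1005 to 1748 in cerebellum and from 1263 to 2049 in cortex. The 3 endothelial and smooth muscle markers summed to 481 to 734 in cerebellum and 867 to 1523 in cortex. miR-126, an endothelial miRNA, was lower by -0.76 ± 0.19 (adjusted p = 0.015), and its other strand miR-126* by -1.09 ± 0.21 (adjusted p = 0.00609). Neither was called lower under all 7 scalings, and miR-126 was at 0.12 with the 75th percentile over all miRNAs. miR-143 stood at -0.83 ± 0.40 (adjusted p = 0.11).

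Leukocyte markers were lower as well, with miR-142-3p at -0.95 ± 0.26 (adjusted p = 0.0204), miR-223 at -0.88 ± 0.22 (adjusted p = 0.0166) and miR-150 at -0.59 ± 0.14 (adjusted p = 0.0119), but not under every scaling. The 4 leukocyte markers summed to 170 to 212 in cerebellum and 290 to 372 in cortex, and miR-142-5p was at the floor on all 6 arrays. The red cell miRNAs miR-451 and miR-144 were at the floor on all 6 arrays. The mesenchymal miR-199a-3p stood at -0.77 ± 0.44 (adjusted p = 0.161). The part of these cell types in the differences above was not tested. By lists, and beside 23.7% higher and 50.5% lower over all miRNAs, the tested endocrine miRNAs had 1 of 4 higher and 2 lower, those of striated muscle 2 of 2 higher, those of choroid plexus and ciliated epithelium 1 of 3 higher and none lower, those of endothelium and smooth muscle 2 of 3 lower, those of blood and leukocytes 3 of 3 lower, and the 1 mesenchymal miRNA did not pass. None of the 11 members of the HOX clusters and none of the 5 of the miR-183 cluster on the array was tested.

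Both strands of a precursor were tested in 20 cases. In 11 of them both strands were called in the same direction, in 4 neither was called, in 5 only 1 was, and in none were they called in opposite directions, where 74.2% of all miRNAs tested were called. Of miRNAs with a single locus in RefSeq, neighbours within 10000 bases formed 15 groups with at least 2 tested hairpins. miR-195 and miR-497 had the highest median difference of these groups, and miR-221 and miR-222 the lowest. The largest group lay within chr6:134543460-134579828 in the Dlk1-Dio3 region and held 28 probe sets, with miR-487b and its older probe set (v15.0) counted separately. Of these, 26 were lower and none higher, beside 50.5% lower over all miRNAs. The range over scalings was taken for the whole region only, as given above.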

How the data were processed

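The authors deposited 1 scanner output per array, with a background-subtracted signal intensity per spot (Agilent Feature Extraction 10.7.3 per the submitters' processing notes), and a table of normalized intensity values, which served as an alternative. Labelled RNA was hybridized to a custom rat miRNA array with 14340 miRNA spots. None was saturated. Here, outlier spots were left out and the others averaged per probe sequence and per miRNA. Each array was divided by its 75th percentile, taken from the 37 miRNAs that every array of the series detected, values under 10.8 were set to that floor and log2 was taken. miRNAs at the floor on every array of a fit were dropped. Cerebellum and cortex were compared with limma 3.58.1 (R 4.3.3), with rat as a fixed block and two-sided p, Benjamini-Hochberg adjusted over the 198 miRNAs tested. Where a miRNA was not well above background on any array of an organ, the fold is a lower bound, taken per array against the highest of the floor, the lowest signal of a detected miRNA and its own signal. The number of arrays limits the precision. The arrays of a number come from 1 rat. On 8 arrays of the series the title and the source name give different rat numbers, and the title was used. None of these is of cerebellum, cortex, hippocampus or thalamus. Deviations of the 2 organs from their means correlated at 0.21, 0.54 and 0.18 in rats 4, 5 and 6, and at -0.15 on average between rats. Deviations from a mean cancel over the 3 rats of an organ. The value between rats is thus tied to those within rats and is no separate check of the pairing. Hippocampus and thalamus entered separate fits. With 3 rats an exact paired permutation cannot go below p = 0.25, so none is given. Named miRNAs were miR-124 and miR-195, the 15 largest called differences each way with the same sign in all rats and no overlap, members of 20 lists and other strands. Members and lists were chosen with earlier results of these data known. Sequences were matched by name to RefSeq (GRCr8), which held 173 of the 198 miRNAs. Array names are those of the design (v15.0 marks a probe set of that miRBase release). The fit was tested on simulated data. With 20 of 198 miRNAs changed by 0.5, 1 or 2 in log2, it recovered 39.5%, 97.65% and 99.85% of them. A difference near 0.5 can thus be missed. The data held far more calls than 20, so the share missed in them may differ.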

Additional observations from a re-analysis of the deposited data

How the results depend on the processing

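Counts of calls moved with the scaling. For cerebellum against cortex, against 47 higher and 100 lower, the 75th percentile over all miRNAs gave 92 and 37, the authors' values 80 and 60, and centring on the median, added after seeing the data, 73 and 63. A floor 4 times as high left 61 lower. For cerebellum against hippocampus and thalamus (35 higher, 113 lower), these scalings gave 98 and 28, 83 and 58, and 85 and 57, quantile normalization 61 and 72, the higher floor 72 lower and normexp 23 higher. For cortex against the same organs (5 higher, 26 lower) they gave 16 and 9, 11 and 12, and 21 and 10, quantile normalization 9 and 17, the median over commonly detected miRNAs 2 and 6, the higher floor 17 lower, and fitting all arrays of perfused rats together 15 and 56. Leaving out a rat gave 1 to 2 higher and 0 to 15 lower there (without rat 4, 1 and 3; rat 5, 2 and 15; rat 6, 1 and 0). For cerebellum against cortex it gave 36 to 46 higher and 82 to 110 lower. Without the replicate block, 42 were higher and 100 lower. Signs turned with the 75th percentile over all miRNAs for miR-126 (0.12), miR-127 (0.041), miR-150 (0.29), miR-15b (0.82), miR-219-2-3p (0.59), miR-29a (0.084), miR-338 (0.77) and miR-9 (0.47), with quantile normalization for miR-15b (0.54), with the authors' table for miR-15b (0.50) and miR-338 (0.45), and with centring for both (0.44 and 0.39). The 75th percentile over all miRNAs moves all signals of an array by the same factor. Its turns thus follow from the size of the main difference and are not particular to these miRNAs. Normexp turned miR-34c (-0.35) and miR-378* (-0.036), and, against hippocampus and thalamus, miR-320 (-0.0072) and miR-378* (-0.076). Of miR-124 and the 30 largest differences, 23 kept direction and call under every alternative that gave a value (20 or 21, as a filter for detection on every array drops dim miRNAs), 7 lost the call under at least 1 (miR-124 with quantile normalization, miR-135a, miR-28, miR-320, miR-409-5p, miR-434* and miR-7b with the higher floor, and miR-28 also with normexp), and miR-378* turned in sign with normexp. There it lost its call and gained none in the other direction (-0.036, limma adjusted p = 0.791). Normexp was run with an offset of 50 and no floor. The cause was not tested. Dim miRNAs near the floor limit the precision.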
